A study of Mus musculus with 18 samples.

Results

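The nuclear-encoded subunits of the mitochondrial respiratory chain were taken from the UMI matrices of a single-cell study of the postnatal mouse heart. Members were the genes whose symbol starts with Nduf, Uqcr, Atp5, Cox4i, Cox5, Cox6, Cox7 or Cox8, together with Sdha, Sdhb, Sdhc and Sdhd, without symbols that contain -ps. The rule gave 97 of 35843 Ensembl genes, none of which was at 0 in every well. By textbook assignment 36 belonged to complex I, 4 to complex II, 8 to complex III, 19 to complex IV (Ndufa4 and Ndufa4l2 counted here) and 16 to complex V, and 8 were the complex I assembly factors Ndufaf1 to Ndufaf8. The remaining members were Cox7a2l, which joins complexes into supercomplexes, the ATP synthase factor Atp5s and 4 genes that the annotation calls pseudogenes (Cox6c2, Ndufa11b, Ndufb4c and Ndufs6b).

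The respiratory chain passes electrons from NADH (complex I) and succinate (complex II) through complex III to oxygen at complex IV, and the proton gradient it builds drives ATP synthesis at complex V. Most subunits are encoded in the nucleus, and 13 are encoded by mitochondrial DNA. The heart is among the tissues richest in mitochondria, and several complex IV subunits exist as pairs of isoforms, one found in most tissues and one found in heart and skeletal muscle.

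Cells came from hearts of Myh6/Esr1-Tomato mice, a strain label shared by all groups. In it tamoxifen, which the study gave to dams in the days after birth, switches on a red reporter in cells that use the cardiomyocyte promoter Myh6. The samples without a hairpin, called wild-type here as in the labels although they carry the reporter, were P4 (2 chips, postnatal day 4), P7 (2 chips), P14 (2 chips) and P28 (6 chips), from 11 animals or preparations named in the well reports. The P4 chips held the same 2 animals, the P7 chips another 2, each P14 chip 1 heart, and the P28 chips 3 preparations, of which chips 1 and 2 held 2 animals, chips 5 and 6 another 2, and chips 3 and 4 name none and were counted as 1. In 6 further chips at P28, hearts had been injected shortly after birth with lentivirus carrying a hairpin against Jun (shJun) or a control hairpin (shNT), with 2 animals each, and the labels call these samples mixed. Hearts were digested with a kit at P4 and P7 and by perfusion at P14 and P28, so digestion and age cannot be told apart across that step. The well reports also name cardiomyocyte and non-cardiomyocyte fractions, by well at P14 and by chip at P28.

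Of 15993 wild-type cells 12794 passed the filters, and of 7482 knockdown cells 7057 passed. Nuclear UMIs per chip, summed over its cells, ran from 5568076 to 79284379. Cells were clustered without the members and without their partner genes. The cardiomyocyte-like (CM-like) class was named from Tnnt2, Actc1, Myh6, Tnni3, Actn2, Ttn, Ryr2 and Myom1, and Tnnt2 lay between 6849 and 13946 UMIs of every 1000000 nuclear UMIs (CPM) in its wild-type sums. A sum is the total UMI count of all cells of a class on 1 chip, or of 1 animal for the hairpins. CM-like sums of the P4 chips held 163 and 177 cells, those of the P7 chips 16 and 23, those of the P14 chips 305 and 152, and those of P28 chips 1, 3 and 5 held 935, 566 and 674. Of the 2190 CM-like cells at P28, 879 lay in 3 clusters led by endothelial, fibroblast or pseudogene transcripts. Levels, shares and ratios at P28 include these cells unless stated. At P4, 113 of 340 CM-like cells had more UMIs of the atrial gene Myl7 than of the ventricular gene Myl2, against 0 of 2190 at P28. Of the cells passing, 4671 of 5008 well barcodes occurred on more than 1 chip, since each chip uses the same set of barcodes.

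Chips differed in ways that several cell classes shared. On the log2 scale, the difference of a member's CPM between P4 chips 1 and 2, which held the same animals, went together in CM-like and endothelial-like sums across 88 members (Pearson r = 0.832, Spearman rho = 0.646). Between P28 chips 5 and 6 and the other P28 chips the same measures were 0.658 and 0.654. These are descriptions across genes of the same libraries and carry no test. Cox7c, a small complex IV subunit, was at 1091 CPM in the CM-like sum of P4 chip 1 and at 291 in that of chip 2, and at 362 and 101 in their endothelial-like sums. Single levels are therefore given with every chip, and shares within a library are given beside them.

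The respiratory chain genes took a far larger part of the UMIs of CM-like cells than of other cells. They made up 13.7% and 15.1% of nuclear UMIs in the CM-like sums at P4, 12.2% (16 cells) and 13.3% at P7, 8.95% and 15.03% at P14, and 10.7%, 17.2% and 17.1% at P28. In the endothelial-like sums they made up 4.73% and 5.29% at P4, then 4.43% and 5.04% at P7, 3.45% and 4.94% at P14, and 3.03%, 2.55% and 3.28% on P28 chips 2, 4 and 6, with 5.05% in 13 cells of P28 chip 1. The CM-like and endothelial-like values did not overlap at any stage, while the CM-like range at P28 took in every P4 and P7 value. In a sum, fewer cells with a transcript and less of it in each cell cannot be told apart.

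**Figure D1:**
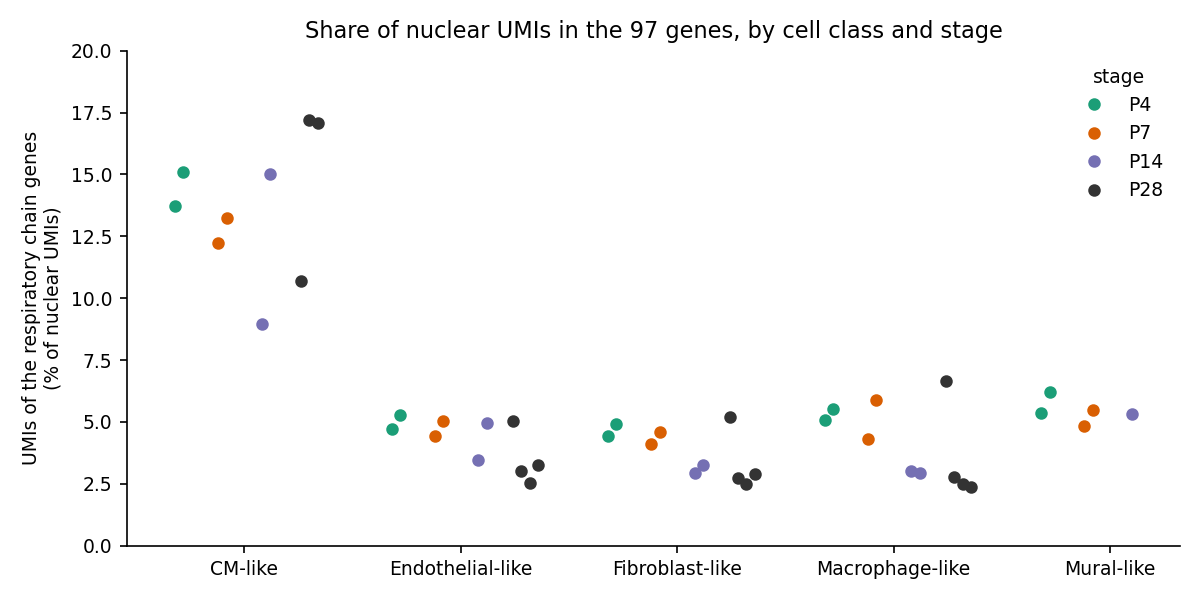
Share of nuclear UMIs (%, vertical axis) taken by the 97 respiratory chain genes in each sum of at least 10 cells, by cell class (horizontal axis) and stage (colour), with 1 point for each chip. The CM-like points lie between 8.95% and 17.2%, above every other class, and the P28 points of the other classes are lowest except for chip 1.

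Gene by gene, 54 of 95 members had every CM-like sum above every endothelial-like sum, while 2.16% of all 17592 genes did. The counts were 57 of 95 against fibroblast-like sums (1.94% of all genes), 38 of 94 against macrophage-like sums (1.67%) and 48 of 94 against mural-like sums (3.15%). No member had all its CM-like sums below the endothelial-like (3.43% of all genes), fibroblast-like (2.71%) or macrophage-like sums (2.81%). Below the mural-like sums were 2 members (8.37%), Cox4i2 and Ndufa4l2. Over the members the median log2 ratio of the CM-like to the endothelial-like mean was 1.65, beside -0.58 over all genes. The classes are clusters of these same cells, so these counts describe and do not test them.

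In complex I, the NADH dehydrogenase, the 3 members with the highest mean in the CM-like sums were Ndufa3 (3059 CPM), Ndufb10 (2824 CPM) and Ndufa5 (2786 CPM), all accessory subunits. The core subunits that carry electrons were lower. Ndufs1 lay between 196 and 544 CPM over the 9 wild-type CM-like sums of at least 10 cells, on which the other ranges of levels also rest, Ndufv1 between 317 and 698 and Ndufv2 between 540 and 1284. A UMI stands for 1 captured transcript, so these levels were not divided by length, and capture can differ between genes.

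Complex II, succinate dehydrogenase, was the lowest of the complexes. Sdhb, its iron-sulfur subunit, averaged 1339 CPM over the 8 CM-like sums of at least 20 cells, against 523 for the membrane anchor Sdhd and 505 for the flavoprotein Sdha. Sdhc, the other anchor, was between 133 and 433 CPM. In complex III the highest members were Uqcrq (4171 CPM), Uqcr10 (3708 CPM) and Uqcr11 (3294 CPM), small accessory subunits, and the catalytic iron-sulfur protein Uqcrfs1 lay between 758 and 1546. The core proteins Uqcrc1 and Uqcrc2 lay between 459 and 1335 and between 260 and 653 CPM.

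In complex V, the ATP synthase, Atp5k averaged 4714 CPM, Atp5j 3785 CPM and Atp5g3 3367 CPM. The catalytic beta subunit Atp5b was at 1690 and 1594 CPM at P4, then 1338 and 1292 at P7, 1740 and 2477 at P14, and 2551, 3055 and 3307 at P28. Every P28 value lay above every value of the earlier stages. The alpha subunit Atp5a1 was at 1706 and 1811 CPM at P4, then 3484 and 2383 at P7, 1429 and 2023 at P14, and 2147, 2821 and 1895 at P28, where stages overlapped. Complex IV, cytochrome c oxidase, held the most abundant members of all, with means of 5374 CPM for Cox8b, 5173 for Cox4i1 and 5136 for Cox6a2.

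The isoform pairs of complex IV were compared between early and late stages as the share of an isoform within its pair, which uses no scaling factor between libraries, although chips can still differ in it. Cox6a1 and Cox6a2 are the general and the heart and muscle isoforms of subunit 6a. Cox6a1 was at 608 and 750 CPM in the CM-like sums at P4, then 375 and 537 at P7, 202 and 214 at P14, and 235, 235 and 304 at P28, so no late sum reached any early one. Cox6a2 was at 3690 and 5162 CPM at P4, then 2535 and 2724 at P7, 3881 and 4877 at P14, and 3427, 6567 and 10757 at P28, with overlap between early and late sums. Cox6a2 was the main isoform throughout, and its share of the pair went from 86.0% ± 1.74 (SD, n = 4 sums at P4 and P7) to 95.6% ± 1.41 (n = 5 sums at P14 and P28).

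The largest difference of the 8 shares compared was in subunit 7a. Cox7a1, the heart and muscle isoform, was at 1792 and 2086 CPM at P4, then 1648 and 1999 at P7, 2173 and 4300 at P14, and 3974, 8818 and 3122 at P28. Its general partner Cox7a2 was at 2655 and 2400 CPM at P4, then 2964 and 2478 at P7, 1034 and 1699 at P14, and 1481, 2213 and 2648 at P28. Every late Cox7a1 value lay above every early one, whereas Cox7a2 overlapped through P28 chip 5. The share of Cox7a1 was 40.3% and 46.5% at P4, 35.7% (16 cells, 95% exact Clopper-Pearson interval 34.2% to 37.2%) and 44.6% at P7, 67.8% and 71.7% at P14, and 72.8%, 79.9% and 54.1% at P28. Intervals cover counting error only and were narrower than the spread between chips. The lowest late share, 54.1%, came from P28 chip 5, and in chip 6 of the same preparation Cox7a1 was also low in endothelial-like cells, at 0.176 UMIs for each Tnnt2 UMI against 1.01 and 0.890 in chips 2 and 4.

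For subunit 8, Cox8a is the general isoform and Cox8b the heart and muscle isoform. Cox8a was at 1234 and 1185 CPM at P4, then 436 and 642 at P7, 271 and 396 at P14, and 304, 424 and 568 at P28, which placed P4 above all other stages and let P7 overlap P28. Cox8b was at 3213 and 3267 CPM at P4, then 4156 and 3442 at P7, 3754 and 6140 at P14, and 4791, 8256 and 10132 at P28. The share of Cox8b was 72.3% and 73.4% at P4, then 90.5% and 84.3% at P7, 93.3% and 93.9% at P14, and 94.0%, 95.1% and 94.7% at P28. P7 therefore stood between P4 and the later stages for this pair, and with P4 for the other pairs. Cox8c, another member, had at most 0.147 CPM in any CM-like sum of at least 10 cells.

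The 3 shares were higher in every P14 and P28 CM-like sum than in every P4 and P7 CM-like sum. The difference was 9.69 percentage points for Cox6a2, 27.5 for Cox7a1 and 14.1 for Cox8b, each with p = 0.0159 in an exact two-sided permutation test of 4 against 5 sums, the smallest value that these 126 splits can give, and 0.0423 after Benjamini-Hochberg adjustment over the 8 shares compared. The other 5 did not pass over these sums. Atp5g1, a gene for subunit c of complex V, went from 45.1% ± 6.76 to 34.7% ± 3.61 of the Atp5g family (exact permutation p = 0.0476, adjusted 0.0762), and Cox6b2, the testis-type isoform of subunit 6b, from 0.480% to 0.0664% (exact permutation p = 0.0476, adjusted 0.0762). The highest Cox6b2 share, 1.19% on P7 chip 2, rested on 52 UMIs of which 49 came from 1 cell. Cox4i2, Cox7b2 and Ndufa4l2 each took under 1% of their pair in CM-like cells (adjusted exact permutation p = 0.381, 0.272 and 0.148). In the early sums Ndufa4l2 had 24 and 4 UMIs at P4 and 1 and 2 at P7. Per animal, with 4 early and 7 late sums, the Cox7a1 difference was 25.03 percentage points (exact permutation p = 0.00606, adjusted 0.0162). Cox6a2 and Cox8b passed with the same values of p, again the smallest that the design can give. The Atp5g1 difference of -10.03 points passed as well (exact permutation p = 0.0121, adjusted 0.0242). Animals on the same chips share the differences between chips, so these sums are not independent. The Atp5g1 share was 48.4% and 35.8% in the CM-like sums of P4 chips 1 and 2, which held the same animals. In endothelial-like sums it was 43.2% and 31.9% at P4, then 59.6% and 56.5% at P7. It was 34.1% and 29.6% there at P14, and 23.5%, 30.3% and 38.1% on P28 chips 2, 4 and 6. With each cell thinned to at most 5000 UMIs Cox8b no longer passed, with a difference of 11.4 points (exact permutation p = 0.0317, adjusted 0.0508) and early sums up to 94.3% against late sums from 93.9%, while Cox6b2 and Ndufa4l2 passed (adjusted exact permutation p = 0.0317 each). Leaving out any 1 sum made the design too small to pass after adjustment, and the difference for Cox7a1 then ran from 24.8 to 31.3.

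The Cox7a1 difference was also taken in other sets of cells. Without CM-like cells that had more Myl7 than Myl2 UMIs, a setting added after seeing the data, the Cox7a1 difference was 27.4 percentage points. Without the 3 P28 CM-like clusters led by endothelial, fibroblast or pseudogene transcripts (879 cells) it was 27.8. In the 4 hairpin animals at P28, which the test did not use, Cox7a1 took 72.6%, 71.3% (shJun), 72.5% and 71.1% (shNT) of its pair. Cox6a2 took 94.3% to 94.97% in these animals, within the range of the late wild-type sums, and Cox8b 95.6% to 96.6%, above their highest value of 95.1%. Endothelial-like sums held 1693 and 3498 Cox7a1 UMIs beside 4136 and 7221 of Cox7a2 at P4. At P7 these were 4484 and 6726 beside 7822 and 11605, and at P14 4329 and 1904 beside 3287 and 1042. On P28 chips 2, 4 and 6 they were 903, 460 and 161 beside 1101, 1967 and 980. Cox8b had 2223 and 3842 UMIs beside 2306 and 4241 of Cox8a at P4, and 7434 and 2313 beside 1505 and 446 at P14. These endothelial-like shares were not tested.

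**Figure D2:**
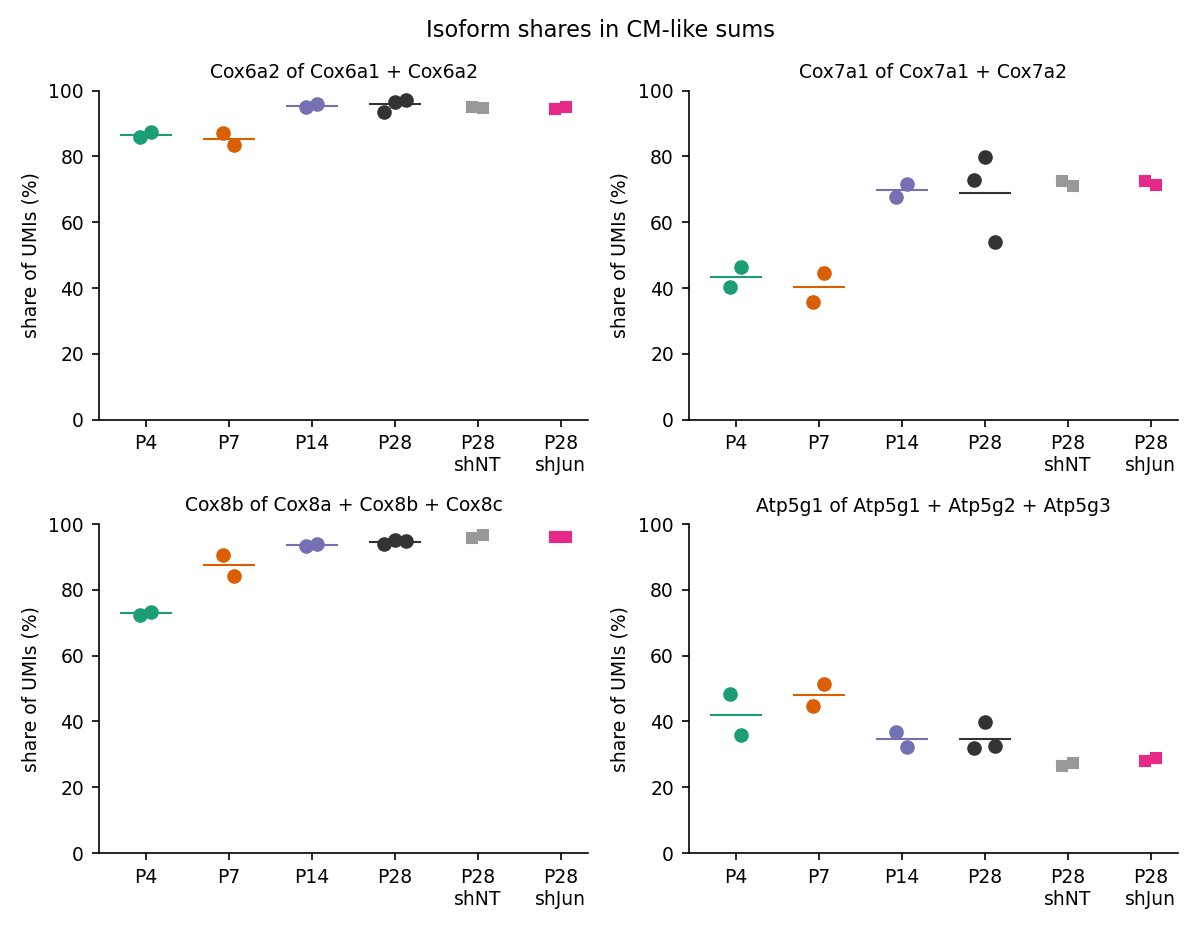
Share of UMIs (%, vertical axis) of 4 isoforms within their family in each CM-like sum, by stage and hairpin (horizontal axis); circles are chips, with exact 95% intervals mostly smaller than the symbol and a line at the mean, and squares are hairpin animals. Cox6a2, Cox7a1 and Cox8b are higher in every P14 and P28 sum than in every P4 and P7 sum, with the lowest late Cox7a1 share at 54.1%.

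The share of cells with a UMI, read after each CM-like cell was thinned to 3000 UMIs, was lower at P14 and P28 than at P4 and P7 for the general isoforms Cox6a1 and Cox8a and did not follow the early and late grouping for the others. Cox6a1 was found in 61.7% of 332 P4 cells, 66.7% of 39 P7 cells, 18.4% of 452 P14 cells and 39.6% of 1754 P28 cells. Cox8a was found in 78.0%, 79.5%, 25.7% and 56.4% of the same cells. Cox7a1 was found in 85.2%, 92.3%, 88.1% and 99.1% of them, Cox6a2 in 96.1%, 94.9%, 91.4% and 99.4%, and Cox8b in 92.8%, 94.9%, 89.4% and 98.9%. The general isoform Cox7a2 was found in 87.7%, 87.2%, 61.3% and 94.6%, highest at P28. Unthinned, the Cox6a1 shares were 83.5%, 89.7%, 29.8% and 60.5%, with median depths of 25674, 39146, 9441 and 8611 UMIs. As background, in cells that should lack the muscle isoform, Cox6a2 was found in 54.1% of thinned endothelial-like cells at P4 (median depth 12860 UMIs) and 19.5% at P28 (6567 UMIs), beside 96.1% and 99.4% in CM-like cells. The general isoforms were also lower late in thinned endothelial-like cells. From P4 to P28, Cox6a1 was found there in 45.8%, 40.5%, 27.3% and 39.4%, and Cox8a in 50.8%, 40.4%, 28.2% and 37.7%. In fibroblast-like cells Cox8a had the same order (55.5%, 42.7%, 36.5% and 41.4%), and Cox6a1 did not (50.5%, 38.0%, 27.7% and 42.4%).

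The sequences upstream of these isoform genes are shown because the muscle isoforms differ from their general partners in CpG content. In the 250 bases before the start in the RefSeq table (GRCm38.p6), 74 of the 97 members had an entry, and Cox6a2, Cox4i1 and Cox4i2 were among those without one. The window holds 1 CpG for Cox8b and 4 for Cox7a1, against 26 for Cox6a1, 14 for Cox7a2 and 11 for Cox8a. Over the 74 members the median was 14.5, beside 6 over 27025 genes, and 3 members (4.05%) had 4 or fewer, beside 42.4% of all genes. Sequences run 5′ to 3′ towards the gene, and capitals mark CpG dinucleotides.
Cox6a1, chr5:115348959-115349208, minus strand: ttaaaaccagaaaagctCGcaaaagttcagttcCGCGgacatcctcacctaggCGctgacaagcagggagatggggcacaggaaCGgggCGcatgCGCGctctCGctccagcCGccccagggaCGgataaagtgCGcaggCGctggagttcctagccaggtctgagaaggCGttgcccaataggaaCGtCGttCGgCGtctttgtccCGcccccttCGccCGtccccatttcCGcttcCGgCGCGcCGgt
Cox7a1, chr7:30183921-30184170, plus strand: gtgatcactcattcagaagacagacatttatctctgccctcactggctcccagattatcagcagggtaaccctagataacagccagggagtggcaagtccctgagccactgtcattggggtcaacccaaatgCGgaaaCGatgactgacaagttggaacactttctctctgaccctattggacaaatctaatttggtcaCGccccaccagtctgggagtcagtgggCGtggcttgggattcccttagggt
Cox7a2, chr9:79759854-79760103, minus strand: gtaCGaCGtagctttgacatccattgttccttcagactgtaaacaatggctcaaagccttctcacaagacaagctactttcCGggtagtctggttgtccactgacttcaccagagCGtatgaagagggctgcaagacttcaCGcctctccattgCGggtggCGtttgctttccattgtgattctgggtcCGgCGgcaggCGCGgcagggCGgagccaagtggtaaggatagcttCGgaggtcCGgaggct
Cox8a, chr19:7217617-7217866, minus strand: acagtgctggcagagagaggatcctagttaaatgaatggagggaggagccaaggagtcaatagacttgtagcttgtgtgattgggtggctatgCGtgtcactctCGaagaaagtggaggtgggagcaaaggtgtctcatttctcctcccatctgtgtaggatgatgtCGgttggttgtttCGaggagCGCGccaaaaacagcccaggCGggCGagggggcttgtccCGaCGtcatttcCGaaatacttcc
Cox8b, chr7:140900447-140900696, minus strand: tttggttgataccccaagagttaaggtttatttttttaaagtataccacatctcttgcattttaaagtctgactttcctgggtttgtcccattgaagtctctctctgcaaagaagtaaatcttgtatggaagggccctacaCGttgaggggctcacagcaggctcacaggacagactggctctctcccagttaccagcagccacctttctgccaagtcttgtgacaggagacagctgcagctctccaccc

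An NRF1-type motif, GCGC and TGCGC parted by any base, was searched on both strands and occurred in 14 of the 74 windows (18.9%), beside 4.23% of all genes. In Cox6a1 matches began 162 and 117 bases before the start, and the other 4 printed windows held none. The ETS-type letters CCGGAAGT occurred in 3 member windows (4.05%, beside 3.23% of all genes), the ERR-type letters TCAAGGTCA in 1 (Atp5g3, 1.35%, beside 0.422%), the YY1-type letters AAGATGG followed by CGG in 1 (Atp5j, beside 0.359%) and the MEF2-type letters CTA and TAG with 4 bases between them in 1 (Cox5b, beside 3.70%). None of these strings contains another. A match describes the letters in the window and nothing about binding.

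Complex IV also took a larger place beside complex I at late stages in CM-like sums, and at P14 in endothelial-like sums as well. The ratio of complex IV to complex I UMIs in the CM-like sums was 0.658 and 0.650 at P4, then 0.640 and 0.578 at P7, 0.826 and 0.848 at P14, and 0.943, 0.917 and 0.954 at P28. Early and late sums did not overlap. Without the Cox6a, Cox7a and Cox8 families the ratio was 0.386 and 0.382 at P4, then 0.363 and 0.346 at P7, 0.434 and 0.483 at P14, and 0.494, 0.429 and 0.383 at P28, and the late range then reached into the early one. In the hairpin animals the whole ratio was 0.646 and 0.748 (shJun) and 0.685 and 0.734 (shNT), below every wild-type sum at P14 and P28. In endothelial-like sums the whole ratio was 0.516 and 0.523 at P4, 0.504 and 0.505 at P7, and 0.674 and 0.695 at P14. At P28 it was 0.469, 0.600 and 0.550 on chips 2, 4 and 6, with 0.833 in 13 cells of chip 1. The difference between stages is a description over members of 1 list and was not tested.

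**Figure D3:**
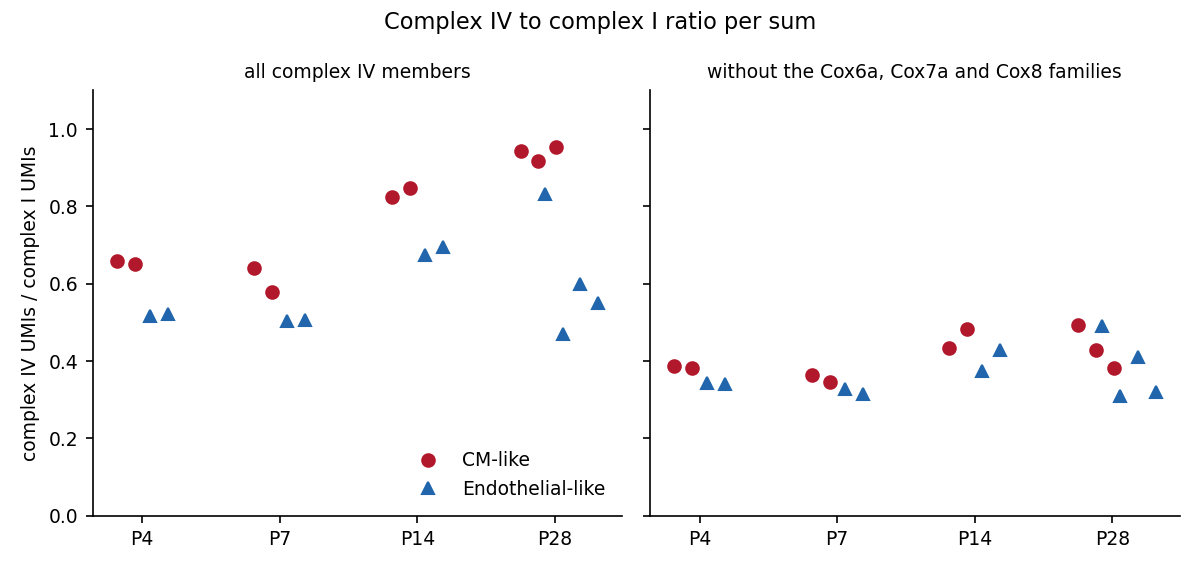
Complex IV UMIs divided by complex I UMIs (vertical axis) in sums of at least 10 CM-like (circles) or endothelial-like cells (triangles) by stage, with all complex IV members on the left and without 3 isoform families on the right. The CM-like ratio is 0.578 to 0.658 at P4 and P7 and 0.826 to 0.954 at P14 and P28, and the gap closes on the right.

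Transcripts of the 13 subunits encoded by mitochondrial DNA varied over a wider range than the nuclear ones. For every 100 nuclear UMIs the CM-like sums held 13.8 and 13.6 at P4, then 27.5 and 20.2 at P7, 207 and 125 at P14, and 121, 64.8 and 47.8 at P28. The endothelial-like sums of the same P14 chips held 130 and 53.5, so the chip that was higher in CM-like cells was also higher in endothelial-like cells. The hairpin animals held 44.7 to 59.6.

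Tested one at a time across all genes, the members showed few calls between stages in CM-like sums. With edgeR's quasi-likelihood test none of 95 members passed an adjusted p of 0.05 at P14 against P4, in either direction, while 1.63% of all genes were called higher and 1.38% lower; 6 members had an unadjusted p under 0.05 (6.32%, beside 18.6% of all genes). At P28 against P4 again none passed (2.46% of all genes higher, 1.72% lower), with 8 members under an unadjusted 0.05 (8.42%, beside 18.6% of all genes). DESeq2 called 2 members at P14 against P4, Cox8b higher (4.62% of all genes) and Cox6b2 lower (2.71%). At P28 against P4 it called 5, of which Cox7a1, Cox8b and Atp5b were higher (5.19% of all genes) and Cox6a1 and Cox8a lower (2.96%). In simulated data of the same size the edgeR test recovered 35 of 100 genes changed by 2-fold and 100 of 100 changed by 4-fold at P28 against P4. The simulation gave every gene the same spread and held no differences between chips, so recovery in the real sums can be lower.

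Cox6a1, Cox8a, Cox7a1 and Cox8b had the 4 smallest p-values of the members in this edgeR comparison without passing. At P28 against P4 the log2 fold change was 1.72 ± 0.62 (SE) for Cox7a1 (edgeR adjusted p = 0.136), 1.49 ± 0.58 for Cox8b (0.165), -1.20 ± 0.42 for Cox6a1 (0.122) and -1.26 ± 0.45 for Cox8a (0.1304). Cox6a2 had 0.86 ± 0.59 and the beta subunit Atp5b 1.08 ± 0.50 (adjusted 0.249). Over all 95 members the median log2 change was 0.05, beside 0.01 over all genes, and 51 of the 95 were positive. By complex the medians were -0.04 for I, 0.16 for II, 0.34 for III, 0.16 for IV and 0.47 for V. At P14 against P4 the members' median was 0.31, beside -0.06 over all genes. With library totals in place of TMM factors the median of all genes at P14 against P4 was -0.78 and that of the members -0.38, so the members' offset from all genes had the same sign and their own direction changed.

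At P28 against P14 none of 95 passed (0.0188% of all genes higher, 0.0126% lower; edgeR, 2 members or 2.11% at an unadjusted p under 0.05, beside 9.70% of all genes; 0 with DESeq2). The P7 contrast rests on 1 sum of 23 cells, whose spread was taken from the other stages, so that its p assumes that this lone sum varies as they do. Against the mean of the other stages 1 member was higher (2.37% of all genes) and none lower (0.546%), namely Cox6b2, with a log2 fold change of 3.94 (edgeR adjusted p = 0.0214). Its 52 UMIs included 49 from a single cell, or 94.2%, so the call describes that cell.

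**Figure D4:**
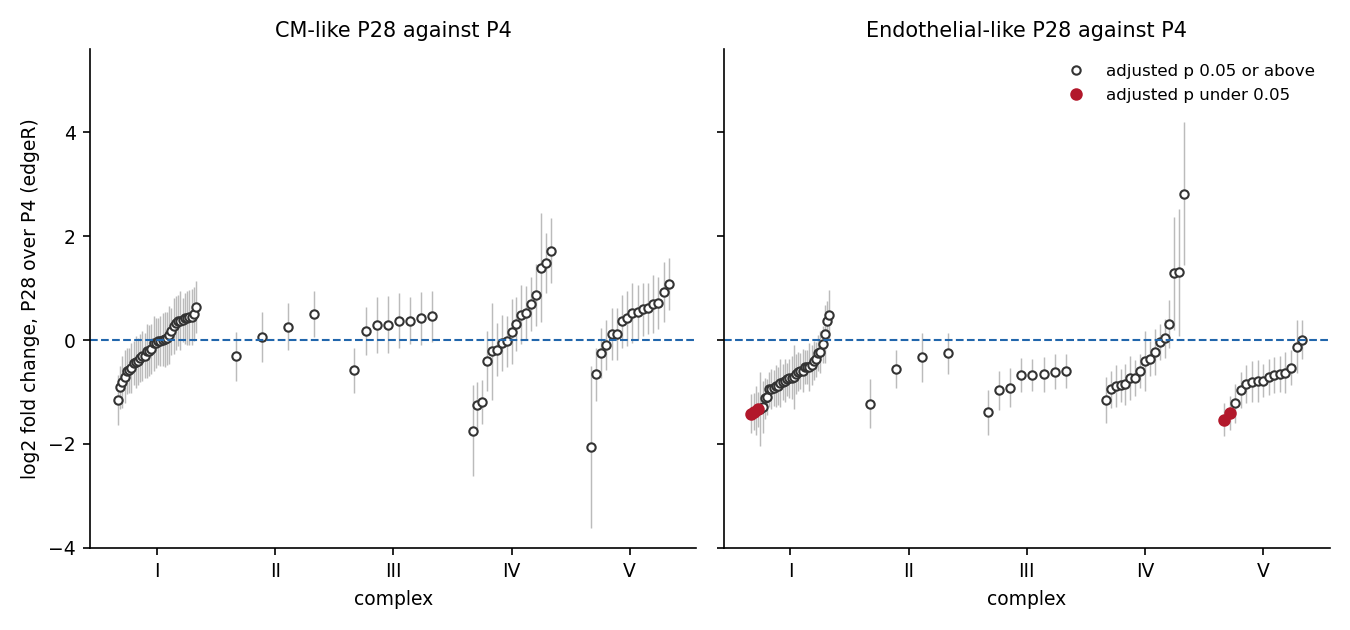
Log2 fold change at P28 over P4 (vertical axis, edgeR, bars are SE) of the members of each complex (horizontal axis) in CM-like and endothelial-like sums; filled points passed an adjusted p of 0.05 and the dashed line is the median of all genes. No CM-like point is filled, and in complex IV they run from -1.75 to 1.72, while most endothelial-like points lie under the line.

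In endothelial-like cells a set of members fell by P28. Of 94 members 6 were lower at P28 than at P4 (1.44% of all genes) and none higher (1.25%), and the members' median log2 change was -0.67, beside -0.00299 over all genes. Atp5o, the stalk subunit of complex V, was at 1047 and 1134 CPM at P4 and at 379, 297 and 363 at P28, a log2 change of -1.53 ± 0.32 (edgeR adjusted p = 0.0112). Atp5a1 was at 585 and 750 CPM at P4 and at 224, 242 and 226 at P28 (-1.41 ± 0.33, adjusted 0.0261). The others were the complex I subunits Ndufb8 (-1.38), Ndufa5 (-1.34) and Ndufa11 (-1.42) and the pseudogene Ndufa11b (-1.78), whose reads a near-identical copy could share. The calls depended on single libraries, with 0 without either P4 chip, 14 without P28 chip 6 and 0 when sums of 10 cells or more were admitted.

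The cardiomyocyte gene Tnnt2 moved with these levels. It was at 2500 and 3268 CPM in the endothelial-like sums at P4, then 3011 and 3691 at P7, 2195 and 2664 at P14, and 391, 161 and 701 at P28. Cox6a2 UMIs for each Tnnt2 UMI were 0.491 in the endothelial-like and 0.503 in the CM-like sum of P14 chip 1, and 0.226 and 0.335 on P4 chip 1. At P4 to P14 both classes shared chips, while at P28 the CM-like sums came from chips 1, 3 and 5 and the endothelial-like ones from chips 2, 4 and 6. These last chips were of the non-cardiomyocyte fraction and held 4, 6 and 5 CM-like cells. Age and this separation cannot be told apart in the endothelial-like change from P4 to P28. The part of free cardiomyocyte RNA in the endothelial-like changes was not tested. At P14 against P4 only Cox8b was higher in endothelial-like sums (log2 change 1.95 ± 0.46, edgeR adjusted p = 0.0494; 0.600% of all genes higher, 0.378% lower), from 462 and 464 CPM to 1047 and 1285.

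In fibroblast-like sums none of 94 members passed at P28 against P4 (0.643% of all genes higher, 0.855% lower; edgeR, 10 members or 10.6% at an unadjusted p under 0.05, beside 11.1% of all genes; 0 with DESeq2), and in macrophage-like sums none of 92 (0.0537% and 0.0984%; 8 or 8.70% at an unadjusted p under 0.05, beside 8.79%; 0 with DESeq2). Their medians were -0.42 and -0.50, beside -0.03 and 0.02 over all genes. Whether the change from P4 to P28 differed between CM-like and endothelial-like cells was tested as an interaction: none of 95 passed (0.265% of all genes higher, 0.00540% lower), and 26 had an unadjusted p under 0.05 with edgeR (27.4%, beside 9.64% of all genes). With DESeq2 1 member passed, Atp5a1 (1.19% of all genes higher, 0.259% lower). With edgeR Atp5a1 came nearest, with an interaction of 2.14 ± 0.52 on the log2 scale (edgeR adjusted p = 0.0759), followed by Cox8b with 2.49 ± 0.61 (0.0761). For P14 against P4 within chips none of 94 passed with edgeR (0% of all genes) and 0 with DESeq2. With edgeR 4 members or 4.26% had an unadjusted p under 0.05, beside 5.95% of all genes. In the simulated data this test recovered 0 of 100 genes changed by 2-fold and 19 of 100 changed by 4-fold. The P28 interaction recovered 5 of 100 and 76 of 100. At P28 its 2 classes also came from separate fractions, unlike at P4. The P28 interaction had no term for chip, although both classes shared chips from P4 to P14, so these sums were treated as independent.

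Cox4i2 and Ndufa4l2, minor isoforms of complex IV, were higher in mural-like sums at P4 and P7 than in the wild-type CM-like sums. The mural-like class was named from pericyte and smooth muscle genes. Cox4i2, the lung and hypoxia-related isoform of subunit 4, was at 374 and 188 CPM in the mural-like sums at P4 and at 682 and 475 at P7. Its share of the Cox4i pair there was 14.0%, 7.80%, 24.5% and 17.1%, whereas no wild-type CM-like sum of at least 20 cells exceeded 0.181%. Ndufa4l2, the paralog of the complex IV subunit Ndufa4, was at 59.2 and 45.5 CPM in mural-like sums at P4 and at 24.99 and 30.8 at P7, or 11.2%, 7.63%, 6.05% and 9.003% of its pair. In CM-like sums it lay between 0.412 and 9.56 CPM. In other classes its highest share was 7.41%, in the fibroblast-like cells of P28 chip 6. Cox4i2 and Ndufa4l2 were the only members, 2 of 94, whose mural-like and CM-like sums did not overlap in this direction, beside 8.37% of all genes. In the hairpin animals at P28 the mural-like sums held 46 Cox4i2 UMIs of 2343499 (shJun), and 97 of 2379261 and 81 of 5993421 (shNT). The fibroblast-like sums at P7 held 404 of 9635352 and 635 of 11286627. On P14 chip 1, 37 of 50 mural-like Cox4i2 UMIs came from 1 of 19 cells.

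**Figure D5:**
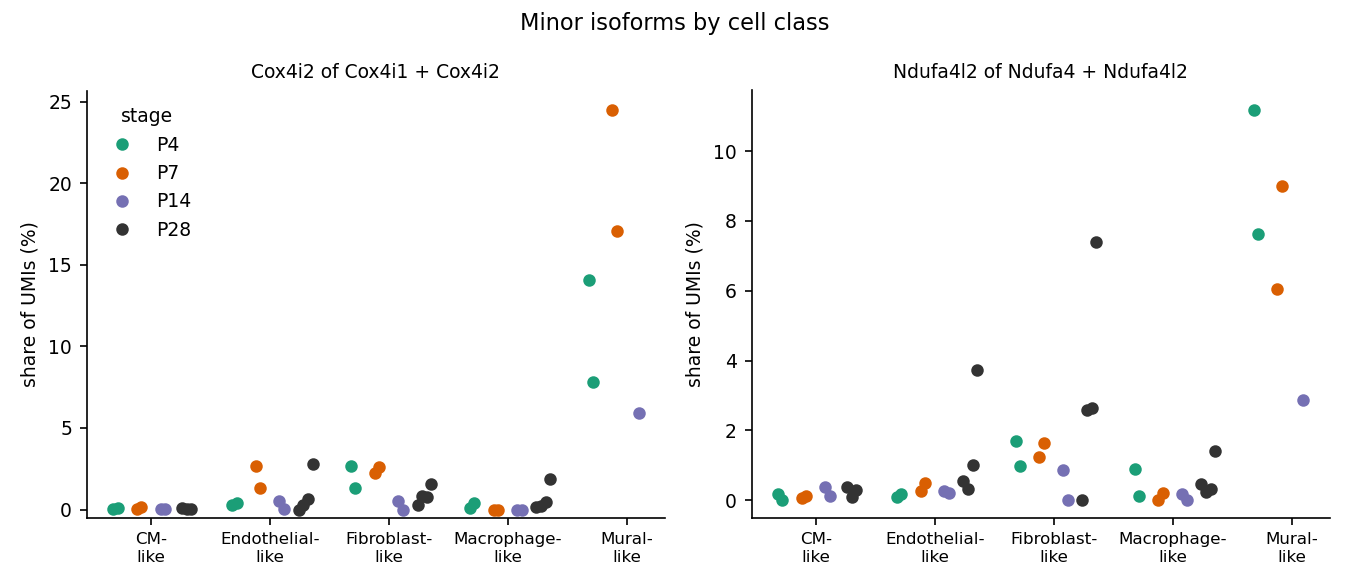
Share of UMIs (%, vertical axis) of Cox4i2 and Ndufa4l2 within their pairs in sums of at least 10 cells, by class (horizontal axis) and stage (colour). Mural-like sums at P4 and P7 hold 7.80% to 24.5% Cox4i2, and CM-like sums lie near 0.

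Other members stayed low or uncertain in every class. Atp5g2, another gene for subunit c, was between 0 and 3.18 CPM in wild-type CM-like sums although its partners Atp5g1 and Atp5g3 were between 1395 and 5111. Its share of the family was at most 0.0551% there, so the Atp5g1 share was in practice taken against Atp5g3. Whether Atp5g2 reads were assigned to a similar copy was not tested. Ndufb4c, annotated as a pseudogene, was between 112 and 2127 CPM in wild-type CM-like sums, and its parent Ndufb4 between 275 and 792; counts of near-identical copies are uncertain because reads can be split between them. Of the 97 members, 8 overlap another gene on the same strand and 30 one on the opposite strand, and whether counting used strand is not given in the sources used here.

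Knockdown of Jun was checked first in the target. Jun was at 27.6 and 31.1 normalised CPM in the CM-like sums of the shJun animals and at 55.9 and 64.7 in those of the shNT animals, so both shJun animals were lower (log2 change -1.04 ± 0.23, edgeR adjusted p = 1.0), a difference that did not pass over all genes. None of 96 members passed between shJun and shNT (0% of all 17599 genes; edgeR, 0 at an unadjusted p under 0.05, beside 2.35% of all genes; 0 with DESeq2). In the simulated data this comparison recovered 17 of 100 genes changed by 2-fold and 94 of 100 changed by 4-fold. The members' median log2 change was -0.04, beside -0.01 over all genes. They made up 9.08% and 12.5% of nuclear UMIs in the shJun animals and 10.1% and 11.6% in the shNT animals, and these ranges overlapped.

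Of the partner genes, 8 regulators of mitochondrial genes, 33 assembly factors, Cycs and Cyc1, 5 carriers and porins and the ATP synthase genes Atpif1 and Usmg5 were tested in CM-like sums. At P14 against P4 none of these passed (edgeR, higher or lower). At P28 against P4 the adenine nucleotide carrier Slc25a5, a form found in many tissues, was lower, with a log2 change of -1.70 ± 0.45 (edgeR adjusted p = 0.0369), and no other passed. Among the regulators at P14 against P4, Nrf1 had 2.22 ± 0.71 (adjusted 0.0995), Perm1 1.66 ± 0.57 (adjusted 0.125) and Esrra 1.43 ± 0.66 (adjusted 0.253). In endothelial-like sums Slc25a4, the heart and muscle carrier, was lower at P28 than at P4 (-1.79 ± 0.35, edgeR adjusted p = 0.0071). Of all genes 1.44% were lower there. The cardiomyocyte gene Tnnt2 was lower in the same sums too, and the part of free cardiomyocyte RNA was not tested.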

How the data were processed

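UMIs per gene were measured in single heart cells on 18 ICELL8 nanowell chips. The authors deposited unnormalised UMI counts for each gene of each well. Per the study's methods and the submitters' processing notes, reads were trimmed with cutadapt, aligned to mm10 with STAR 2.5.2b and assigned with featureCounts (Subread 1.4.6-p1). Wells were grouped by the age in GEO's labels, and hairpin and animal came from the well reports. Cells needed 500 genes and a log10 UMI count within 2 SD of the group mean. No doublet caller was run, because wells with 1 cell had been chosen by imaging. Cells were clustered per stage or animal without the members, and clusters were named from marker lists. A cell can hold RNA freed from others.

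Counts were summed per class and chip (at least 20 cells; 10 for shares), since cells are not replicates. The chips of P4 and of P7 shared animals, so p-values over chips measure the spread between these sums. Comparisons used edgeR 4.0.16 (quasi-likelihood test, TMM, filterByExpr, Benjamini-Hochberg over all genes tested; R 4.3.3), tested on simulated data, and exact permutation tests (scipy 1.17.1). CPM are UMIs of every 1000000 nuclear UMIs, without mitochondrial genes, spike-ins and the reporter. Normalised CPM use TMM. Non-overlap of classes used genes with at least 50 UMIs over both classes. The members, isoform pairs, early and late grouping and partner lists were chosen with earlier results of these data known. Named were the isoform families, Sdha to Sdhd, the core subunits, the 3 highest members of each complex and up to 5 called members in each direction; other genes were named after their values were seen. Some values under this rule are not reported here. Alternatives were DESeq2 1.42.0, library totals, no filter, 1000 genes per cell, thinning to 5000 UMIs, sums per animal and leaving out each sum. Control wells had median counts of 198 (negative) and 235 UMIs (positive), against 11297 in cells, and stayed out of all cell numbers.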

Additional observations from a re-analysis of the deposited data

Results flagged for a closer look

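In groups of 4 to 10 sums, a highest or lowest sum is listed where its gap to the others is a large part of the range. Chance gives this in about 1 of 20 groups. Only the fibroblast-like and macrophage-like classes at P28 had enough sums. Counted over all measures together, 30 groups were examined and 12 values were listed. Most came from P28 chip 1, where non-cardiomyocyte classes were few (21 fibroblast-like and 40 macrophage-like cells). In its fibroblast-like sum the respiratory chain genes took 5.22% of nuclear UMIs, against 2.48% to 2.89% on the other P28 chips. Complex I stood at 16531 CPM there (10047 to 10919 elsewhere), complex III at 7143 (2956 to 3225), complex IV at 12295 (4871 to 5441) and the ratio of complex IV to I at 0.744 (0.485 to 0.508). In its macrophage-like sum the genes took 6.66% (2.36% to 2.79% elsewhere), with complex III at 8302 CPM, complex IV at 17715 CPM, complex V at 17146 CPM and Cox6a2 at 87.5% of its pair (26.0% to 35.4% elsewhere). The cardiomyocyte gene Tnnt2 was at 2063 CPM in that fibroblast-like sum against 128 to 432 on the other chips, and at 2891 against 153 to 403 in the macrophage-like one, and its part in these values was not tested.

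Cox4i2 took 1.87% of its pair in the macrophage-like cells of P28 chip 6, against 0.178% to 0.460% on the others, and Cox7b2 took 0.0610% of its pair in those of P28 chip 4, against 0 on the others.

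For 2 shares all P28 sums of at least 20 cells lay on one side of all P4 sums in CM-like cells and on the opposite side in another class, and the difference between classes was not tested. Cox6a2 was 9.20 percentage points higher at P28 than at P4 in CM-like sums and -20.7 points apart in endothelial-like sums, where the Tnnt2 level differed as well. The 13 endothelial-like cells of P28 chip 1, under that minimum, went the other way, with Cox6a2 at 63.1% against 54.4% and 58.2% at P4, and Cox6b2 at 0 of 465 UMIs of its pair. Cox6b2 differed by -0.218 points in CM-like sums, by 0.531 in endothelial-like sums and by 1.21 in macrophage-like sums, each resting on few UMIs.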

How the results depend on the processing

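Limits. Each comparison of levels rests on 2 or 3 sums a stage, digestion changed with age, and P7 holds 39 CM-like cells. The number of members called moved with the setting, and the cause was not tested. At P14 against P4 in CM-like sums it was 0, but 3 with library totals, 2 with DESeq2 and 1 with no filter. At P28 against P4 it was 0, but 2 with library totals, 5 with DESeq2, 2 with no filter, 2 per animal, 2 without the 3 P28 clusters led by other genes (chosen after seeing the data) and 0 to 1 leaving out 1 sum (1 without P28 chip 1). For P7 it was 1, but 2 with library totals, 5 with DESeq2, 6 with no filter, 0 after thinning, 0 per animal, 5 with sums of 10 cells or more and 0 to 2 leaving out 1 sum (0 without P4 chip 1).

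In endothelial-like sums at P14 against P4 it was 1, but 0 with library totals, 2 with no filter, 0 for cells with 1000 genes, 2 after thinning, 0 per animal, 0 with sums of 10 cells or more and 0 to 2 leaving out 1 sum. At P28 against P4 it was 6, but 10 with no filter, 0 with sums of 10 cells or more, which adds 13 cells of P28 chip 1, and 0 to 14 leaving out 1 sum. In fibroblast-like sums it was 0, but 1 with no filter, 5 per animal and 0 to 1 leaving out 1 sum (1 without P28 chip 1). In macrophage-like sums it was 0, but 1 per animal and 0 to 2 leaving out 1 sum (2 without P28 chip 1). The P28 interaction gave 0, but 1 with DESeq2, 6 with no filter, 3 after thinning and 0 to 1 leaving out 1 sum. The count of isoform shares past the threshold was 3, but 0 with sums of 20 cells or more and 0 to 0 leaving out 1 sum, designs too small to pass. It was 4 per animal, where Atp5g1 was added, and 4 after thinning, where Cox8b was lost (adjusted exact permutation p = 0.0508) and Cox6b2 and Ndufa4l2 were added.

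The hairpin animals that shared chips were paired as a replicate block, which gave 0 members, as without it. No paired analysis was possible for the stages because their labels give no shared replicate numbers. No result changed sign among those past a threshold.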
